A study of Mus musculus with 3 samples.

Results

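The genes described are 9 that carry, make, bind, sense or break down vitamin A and its active product, and they were chosen by name out of the 32285 genes counted. They are Rbp4, Rdh10, Aldh1a1, Aldh1a2, Aldh1a3, Crabp1, Crabp2, Rarb and Cyp26b1. They were measured in single cells of the stromal vascular fraction (SVF) of subcutaneous inguinal fat from 3 wild-type male C57BL/6J mice aged 8 weeks, each of which gave 1 library. The SVF is what is left of digested fat without its adipocytes, and the cells were sorted as CD31- CD45-, a sort that takes away endothelial cells and leukocytes. All mice belong to 1 condition, so the comparisons are between kinds of cells within the mice.

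Each cell was placed by its counted transcripts (unique molecular identifiers, UMIs) of 6 gate genes, none of which is among the 9. The progenitor gate, for Dpp4+ adipocyte stem cells, asked for at least 3 UMIs of Dpp4 and Pi16 together and at most 1 of Icam1 and Fabp4 together, and it held 7399, 3169 and 9273 cells of mice 1, 2 and 3. The preadipocyte gate, for Icam1+ preadipocytes, asked for at least 4 UMIs of Icam1 and Fabp4 together and at most 1 of Dpp4, which gave 2278, 1394 and 1889 cells. The regulatory gate, for adipocyte regulatory cells, asked for at least 1 UMI each of Clec11a and Fmo2 and at most 1 each of Fabp4 and Dpp4, which gave 270, 384 and 404 cells. The 49, 119 and 96 cells that met more than 1 gate were left out. Within the preadipocyte gate, cells with at least 2 UMIs of Cd44 (Cd44-high, 294, 312 and 324 cells) were set against cells with none (Cd44-negative, 1557, 756 and 1157 cells). The study divides its Icam1+ cells by CD44, in clusters of cells and by sorting on surface protein, high against low. The groups here rest on UMIs, and UMIs of Fabp4 alone can meet the gate, so they are not the sorted populations of the study.

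Vitamin A travels in blood as retinol bound to a carrier, RBP4. Inside cells, retinol is oxidised to retinal by dehydrogenases, of which RDH10 is a main one, and retinal is oxidised further to retinoic acid by the ALDH1A enzymes. Retinoic acid is held in the cytoplasm by the binding proteins CRABP1 and CRABP2, acts on nuclear receptors such as RARβ together with RXR partners, and is broken down by CYP26 enzymes. In fat, retinoids are known to affect the differentiation of preadipocytes, and fat tissue stores retinol and secretes RBP4.

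The gene for RARβ is itself a textbook target of its ligand, through a DR5 element, which is a direct repeat of the receptor's recognition motif with 5 letters between the repeats. The sequence upstream of a Rarb start site is shown because this element can be read in it. It is the RefSeq promoter record on GRCm38.p6, chr14:16575477-16575726 on the minus strand, written 5′ to 3′ up to the base before the start site, and the capitals mark the DR5 match at positions -53 to -37.

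Rarb promoter: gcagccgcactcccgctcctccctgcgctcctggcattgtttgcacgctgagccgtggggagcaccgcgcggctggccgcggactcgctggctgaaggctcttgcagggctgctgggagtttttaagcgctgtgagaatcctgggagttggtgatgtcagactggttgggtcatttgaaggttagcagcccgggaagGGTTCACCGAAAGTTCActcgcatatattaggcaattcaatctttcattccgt

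Promoters of 250 bases before to 50 bases after a start were searched on both strands, and 32 of 32851 (0.0974%) held a DR5. The RefSeq promoter table matched 6 of the 9 genes with 8 promoters (Rbp4 and Aldh1a1 with 2 each, Aldh1a2, Crabp1, Rarb and Cyp26b1 with 1 each), and the Rarb promoter was the only one among these 8 with a DR5. The same repeat spaced by 1 letter (DR1) was in 73 promoters (0.222%) and spaced by 2 letters (DR2) in 88 (0.268%), none of them of the 8. These are matches of letters and not measured sites. Rdh10, Aldh1a3 and Crabp2 were not matched. The start shown lies inside the Rarb gene, which has several, and counts from the 3′ end of transcripts do not tell which start was used.

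The 3 libraries held 12984, 6414 and 15179 cells that passed the limits on genes and mitochondrial UMIs, with 94816520, 78108414 and 99328725 UMIs in total and a median of 7392.5, 12192.5 and 6667 UMIs per cell. Between 52 and 81 barcodes were shared by any pair of libraries. Among the gates, cells of the regulatory gate were the shallowest in each mouse, with medians of 4945, 10104.5 and 4575 UMIs. The gates carried the markers of their names that the gates did not use. The summed level of 6 progenitor markers (among them Cd55 and Anxa3) was 4394 to 4846 CPM (counts scaled to the total of the summed cells) in the progenitor gate and at most 1178 CPM in the others, that of 6 preadipocyte markers (among them Pparg and Lpl) was 5962 to 7550 CPM in the preadipocyte gate against at most 2850 CPM, and that of 6 regulatory markers (among them F3 and Cygb) was 1926 to 2483 CPM in the regulatory gate against at most 963 CPM. All 6 adipocyte markers were at 0 in the regulatory gate of each mouse, and their sum was at most 6.45 CPM in the preadipocyte gate. Markers of other cell types moved with the gates too. Endothelial markers summed to 32.4, 59.0 and 4.13 CPM in the preadipocyte gate and 8.55, 2.58 and 2.79 CPM in the progenitor gate, Schwann cell markers, mostly S100b, summed to 42.5, 32.1 and 26.2 CPM and 4.76, 5.86 and 3.05 CPM, muscle markers reached 100 CPM in the preadipocyte gate of mouse 2, and mesothelial and epithelial markers reached 66.6 and 77.0 CPM in the regulatory gate of mouse 3.

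Counts were summed over the cells of each gate in each mouse and scaled to CPM, and the sums were tested with edgeR with the mouse as a block. A gene changed when its p, adjusted by Benjamini-Hochberg over every gene tested, was under 0.05. Preadipocytes differed from progenitors in 7 of the 9 genes. Rbp4, Crabp1 and Cyp26b1 were higher, Rdh10, Aldh1a1, Aldh1a3 and Rarb were lower, and Aldh1a2 and Crabp2 did not pass. The background was high, since 56.4% of the 13258 genes tested changed in this comparison (27.2% higher and 29.2% lower). Regulatory cells differed from progenitors in 6 genes, with Rbp4, Aldh1a2, Crabp1 and Cyp26b1 higher and Aldh1a3 and Rarb lower, beside 42.9% of all genes tested (18.9% higher and 24.0% lower). Regulatory cells differed from preadipocytes in 4 genes, Rbp4, Rdh10, Aldh1a1 and Aldh1a2, all higher, beside 25.7% of all genes tested (12.3% higher and 13.4% lower). The median log2 fold change of all genes tested was 0.00, -0.05 and -0.04 in these comparisons. Each gate enters 2 of the 3, so they are not independent. With every cell that had a UMI of Pecam1, Cdh5, Ptprc, Rgs5, Adipoq or Plin1 left out, the numbers in these comparisons were again 7, 6 and 4, and with cells that had a mesothelial, epithelial or muscle marker left out, an alternative chosen after seeing the data, they were 8, 5 and 4.

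**Figure D1:**
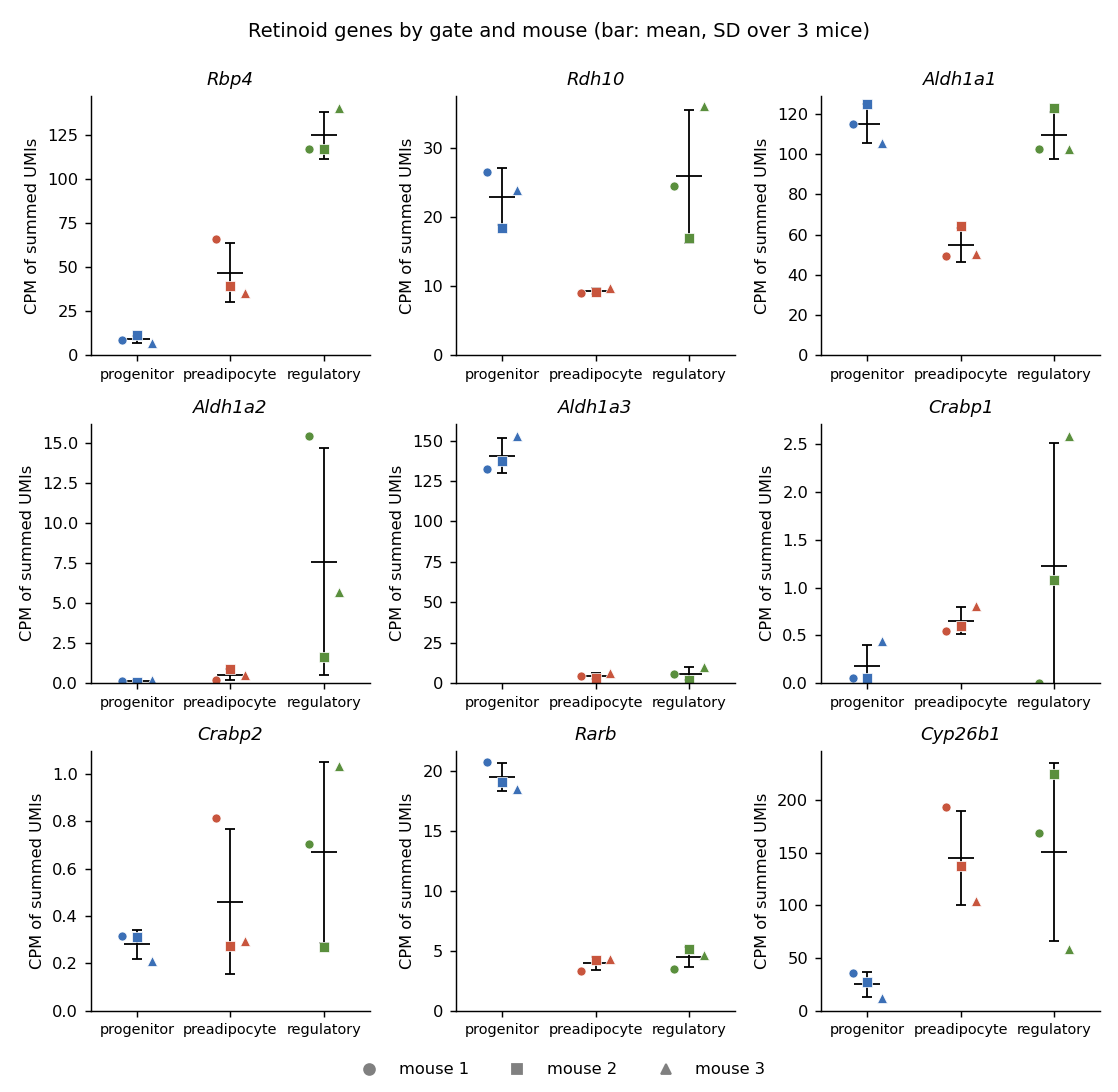
Level of each of the 9 genes in CPM of summed UMIs (vertical axis, linear, from 0) in the progenitor, preadipocyte and regulatory gates (horizontal axis). Each point is 1 mouse, by marker shape, and bars give the mean and SD over 3 mice. Aldh1a3 and Rarb are highest in the progenitor gate, Cyp26b1 is lowest there, and Rbp4 is highest in the regulatory gate.

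**Figure D2:**
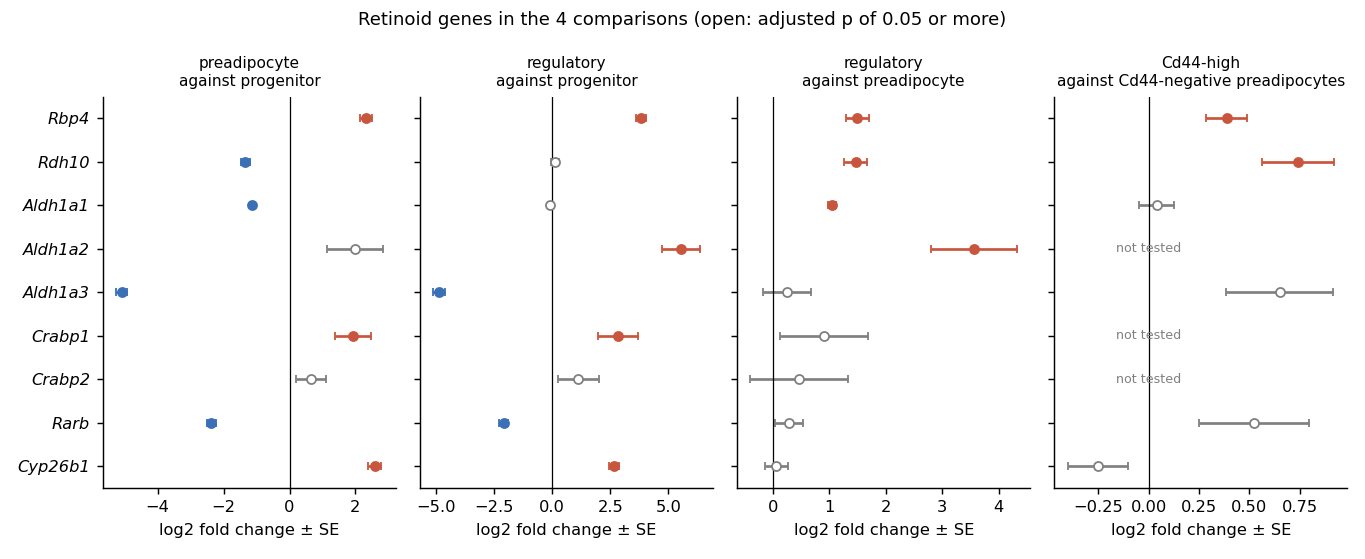
Log2 fold change with its standard error (horizontal axis) for each of the 9 genes in the 4 comparisons, from edgeR on sums of 3 mice. Red points are higher and blue points lower at an adjusted p under 0.05, and open grey points did not pass. The furthest points are those of Aldh1a3, at -5.09 and -4.84, and of Aldh1a2 at 5.54, the latter from 39 UMIs in the regulatory gate.

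Rbp4 (ENSMUSG00000024990, chromosome 19, 38116629 to 38125281, GRCm38) encodes the plasma carrier of retinol. It was at 8.48, 11.4 and 7.24 CPM in the progenitor gate of mice 1, 2 and 3. The preadipocyte gate had 66.1, 39.3 and 35.3 CPM, and the regulatory gate 117, 117 and 141 CPM. The 3 gates did not overlap in any mouse or between mice, with regulatory cells highest and progenitors lowest. Means were 9.05 ± 2.16, 46.9 ± 16.7 and 125 ± 13.4 CPM (SD, n = 3 mice). The log2 fold change was 2.32 in preadipocytes over progenitors (standard error 0.190, edgeR, adjusted p = 5.42e-07), a 4.98-fold difference. Regulatory cells were above progenitors by 3.81 (standard error 0.217, adjusted p = 4.82e-08) and above preadipocytes by 1.50 (standard error 0.204, adjusted p = 0.000177). The differences were also seen in the share of cells with a UMI. It was 4.80%, 8.90% and 3.75% of progenitors, 27.3%, 26.9% and 17.4% of preadipocytes and 31.1%, 41.4% and 27.0% of regulatory cells. When each cell was brought down to 3000 UMIs, with shallower cells left out, the shares were 2.20%, 2.82% and 1.82%, then 14.4%, 9.74% and 8.67%, then 19.0%, 22.9% and 19.2%, in the same order without overlap. A background was read from the few endothelial cells of the libraries, 33, 31 and 6 cells with at least 3 UMIs of Pecam1 and Cdh5 together and medians of 4201, 1999 and 5295.5 UMIs. Of these, 1 of 33 and 2 of 31 cells of mice 1 and 2 had a UMI of Rbp4 (3.03% and 6.45%, exact 95% intervals 0.0767 to 15.8 and 0.791 to 21.4). The progenitor shares of mice 1 and 2 lay within these intervals. The intervals are wide, and the endothelial cells were few, of other depth, and drawn from all kept cells, also those that met a gate. They thus cannot tell whether Rbp4 in progenitors is above background, and it is not read as such. The folds over progenitors are folds over the level counted there.

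**Figure D3:**
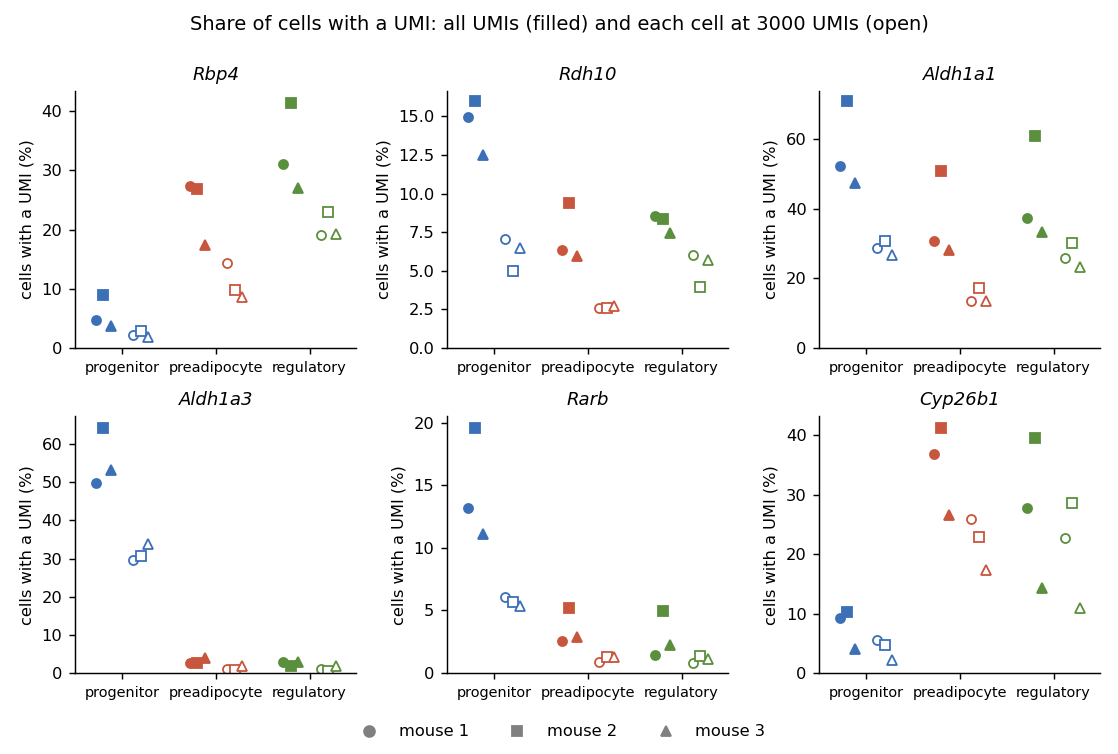
Percent of cells with at least 1 UMI (vertical axis) for 6 of the genes in the 3 gates (horizontal axis), with 1 point per mouse. Filled points use all UMIs and open points use 3000 UMIs per cell. At 3000 UMIs, Aldh1a3 was found in 29.7% to 33.8% of progenitors and in at most 1.87% of the cells of the other gates.

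Rdh10 (ENSMUSG00000025921, chromosome 1, 16105774 to 16133734) encodes the dehydrogenase that turns retinol into retinal. Progenitors had 26.6, 18.4 and 23.9 CPM and preadipocytes 8.96, 9.24 and 9.80 CPM. Regulatory cells had 24.6, 17.0 and 36.2 CPM. Preadipocytes were lowest in each mouse and did not overlap with either other gate, while progenitors and regulatory cells overlapped. The log2 fold change was -1.34 in preadipocytes over progenitors (standard error 0.138, edgeR, adjusted p = 4.42e-06) and 1.46 in regulatory cells over preadipocytes (standard error 0.199, adjusted p = 0.000174). Between regulatory cells and progenitors it was 0.13, with a 95% interval from -0.26 to 0.52 and an adjusted p of 0.607 in edgeR, and it was -0.14 without mouse 3. A UMI of Rdh10 was found in 12.5% to 16.0% of progenitors and 6.32%, 9.40% and 5.93% of preadipocytes. At 3000 UMIs per cell the shares were 7.06%, 4.97% and 6.48% of progenitors, 2.60%, 2.57% and 2.71% of preadipocytes and 5.99%, 3.94% and 5.70% of regulatory cells. The endothelial cells are no background here, since 3 of 33, 3 of 31 and 5 of 6 of them had one.

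Of the enzymes that make retinoic acid from retinal, Aldh1a3 and Aldh1a1 were well detected and Aldh1a2 was rare. Aldh1a3 (ENSMUSG00000015134, chromosome 7, 66390890 to 66427517) was at 132, 137 and 153 CPM in progenitors. Preadipocytes had 4.02, 2.79 and 6.48 CPM, and regulatory cells 5.62, 1.89 and 9.82 CPM. The progenitor values lay far above the others in every mouse, and the preadipocyte and regulatory values overlapped. Preadipocytes were below progenitors by a log2 fold change of -5.09 (standard error 0.170, edgeR, adjusted p = 2.14e-10), a 34.1-fold difference, and regulatory cells by -4.84 (standard error 0.259, adjusted p = 2.91e-08). Regulatory cells and preadipocytes differed by 0.25 (edgeR, adjusted p = 0.734), which was -0.14 without mouse 3. Aldh1a3 UMIs were found in 49.7%, 64.1% and 53.2% of progenitors, with exact 95% Clopper-Pearson intervals of 48.5 to 50.8, 62.4 to 65.8 and 52.2 to 54.2, which cover counting error only. The other gates had it in 1.82% to 3.92% of cells. In endothelial cells it was in 2 of 33 (6.06%) and 1 of 31 (3.23%) cells of mice 1 and 2. In mouse 3 it was in 0 of 6. A rough bound, 3 over the number of cells and not an exact interval, is a share of cells with a UMI of 50%. The exact 95% intervals of mice 1 and 2 were 0.743 to 20.2 and 0.0816 to 16.7. The shares in preadipocytes and regulatory cells lay within them. These intervals are wide, and the endothelial set can share cells with the preadipocyte gate, since it was drawn from all kept cells. They thus cannot tell whether the low shares are above background, and the shares are not read as such. The progenitor gate held 87.8% to 89.9% of all Aldh1a3 UMIs of a mouse, beside 49.4% to 61.1% of its kept cells. Of the 50-base words in the last 500 bases of its transcripts, 2.48% also occur in other genes.

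Aldh1a1 (ENSMUSG00000053279, chromosome 19, 20492715 to 20643465) followed another order. It was at 115, 125 and 105 CPM in progenitors and 49.5, 64.4 and 50.4 CPM in preadipocytes. Regulatory cells had 103, 123 and 102 CPM. Preadipocytes were lowest without overlap, and progenitors and regulatory cells overlapped. The log2 fold change was -1.13 in preadipocytes over progenitors (standard error 0.0654, edgeR, adjusted p = 2.16e-08) and 1.05 in regulatory cells over preadipocytes (standard error 0.0781, adjusted p = 1.10e-06). Regulatory cells and progenitors differed by -0.08, with a 95% interval from -0.25 to 0.08 (edgeR, adjusted p = 0.418). At 3000 UMIs per cell, 28.6%, 30.6% and 26.7% of progenitors, 13.5%, 17.2% and 13.6% of preadipocytes and 25.9%, 30.1% and 23.4% of regulatory cells had a UMI. Among endothelial cells 6 of 33, 1 of 31 and 1 of 6 had one. Aldh1a1 shares 3.28% of the 50-base words of its last 500 bases with the paralog Aldh1a7, which had 11 UMIs in all kept cells.

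Aldh1a2 (ENSMUSG00000013584, chromosome 9, 71215789 to 71296243) was rare. It was at 0.149, 0.0521 and 0.178 CPM in progenitors and 0.163, 0.875 and 0.516 CPM in preadipocytes, where 13 of the 16 UMIs of mouse 2 came from 1 cell. Regulatory cells had 15.4, 1.62 and 5.68 CPM, from 22, 6 and 11 UMIs in 9, 6 and 8 cells. The regulatory values lay above those of both other gates in every mouse. The log2 fold change was 5.54 over progenitors (standard error 0.806, edgeR, adjusted p = 0.000146) and 3.56 over preadipocytes (standard error 0.764, adjusted p = 0.00457). Without mouse 1, which holds most of the UMIs, they were 4.72 and 2.15 (the latter with adjusted p = 0.0414). Aldh1a2 is also known as a mesothelial gene. The summed level of 6 mesothelial markers in the regulatory gate was 0, 2.43 and 66.6 CPM in mice 1, 2 and 3. Whether mesothelial cells gave these Aldh1a2 UMIs was not tested. With all cells that had a UMI of mesothelial, epithelial or muscle markers left out, an alternative chosen after seeing the data, the changes were 5.65 and 3.49 (edgeR, adjusted p = 0.00462 for the latter). The difference between preadipocytes and progenitors, 1.98, did not pass (edgeR, adjusted p = 0.0641), and it passed without mouse 1 (adjusted p = 0.00722).

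The intracellular binding proteins were close to the limit of detection. Crabp1 (ENSMUSG00000032291, chromosome 9, 54764748 to 54773110) gave 3, 2 and 27 UMIs in progenitors, which is 0.0558, 0.0521 and 0.437 CPM. Preadipocytes gave 10, 11 and 11 UMIs, or 0.543, 0.602 and 0.811 CPM. In regulatory cells there were 0, 4 and 5 UMIs, the 4 and the 5 each in 1 cell. For the 0 of 270 cells of mouse 1, the rough bound of 3 over the number of cells is a share with a UMI of 1.11%. That is no limit on the share that express the gene. The preadipocyte values lay above the progenitor values in every mouse, with a log2 fold change of 1.93 (standard error 0.548, edgeR, adjusted p = 0.00991), while regulatory cells overlapped with both. The call for preadipocytes was lost without mouse 2 (adjusted p = 0.0678). Regulatory cells over progenitors passed at 2.83 (standard error 0.853, adjusted p = 0.0183), and that call was lost without mouse 2 (adjusted p = 0.119), without mouse 3 (adjusted p = 0.0557) and without cells that had mesothelial, epithelial or muscle markers (adjusted p = 0.169). Crabp2 (ENSMUSG00000004885, chromosome 3, 87948666 to 87953376) gave 17, 12 and 13 UMIs in progenitors, 15, 5 and 4 in preadipocytes, of which 10 were in 1 cell of mouse 1, and 1, 1 and 2 in regulatory cells. No difference passed for Crabp2, with log2 fold changes of 0.66, 1.13 and 0.47 in the 3 comparisons (edgeR, adjusted p = 0.245, 0.343 and 0.755), so a difference was not detectable at this depth.

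Rarb (ENSMUSG00000017491, chromosome 14, 16430839 to 16819156) encodes the receptor whose promoter is printed above. It was at 20.8, 19.1 and 18.5 CPM in progenitors. Preadipocytes had 3.31, 4.21 and 4.27 CPM, and regulatory cells 3.51, 5.14 and 4.65 CPM. As with Aldh1a3, the progenitor values stood apart and the others overlapped. The log2 fold change was -2.37 in preadipocytes (standard error 0.129, edgeR, adjusted p = 1.27e-08) and -2.08 in regulatory cells (standard error 0.205, adjusted p = 5.38e-06), which is a 5.17-fold and a 4.23-fold difference from progenitors. Regulatory cells and preadipocytes differed by 0.29, with a 95% interval from -0.27 to 0.84 (edgeR, adjusted p = 0.465). At 3000 UMIs per cell, 6.04%, 5.67% and 5.33% of progenitors had a UMI, against 0.911% to 1.26% of preadipocytes and 0.813% to 1.37% of regulatory cells. Exons of Rarb overlap Top2b and Gm48162 on the other strand. The sources used here do not say whether the counting used strand. It was not tested whether reads of these 2 genes entered the Rarb counts. Top2b was at 191, 78.9 and 184 CPM in progenitors and 162, 65.3 and 154 CPM in preadipocytes.

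Cyp26b1 (ENSMUSG00000063415, chromosome 6, 84571414 to 84593908) encodes an enzyme that breaks retinoic acid down. Progenitors had 35.4, 27.4 and 11.9 CPM and preadipocytes 193, 138 and 104 CPM. Regulatory cells had 168, 225 and 58.9 CPM. Mouse 3 was lowest in each gate, and all progenitor values lay below all others, while preadipocytes and regulatory cells overlapped. Means were 24.9 ± 11.9, 145 ± 44.9 and 151 ± 84.5 CPM (SD, n = 3 mice). The log2 fold change over progenitors was 2.58 in preadipocytes (standard error 0.186, edgeR, adjusted p = 1.61e-07) and 2.64 in regulatory cells (standard error 0.210, adjusted p = 8.65e-07), or 5.98-fold and 6.25-fold. Regulatory cells against preadipocytes gave 0.07, with a 95% interval from -0.37 to 0.50 (edgeR, adjusted p = 0.862), and the sign turned to -0.42 without mouse 2. A UMI was found in 9.30%, 10.3% and 4.10% of progenitors, 36.8%, 41.2% and 26.6% of preadipocytes and 27.8%, 39.6% and 14.4% of regulatory cells. Endothelial cells had it in 9 of 33 and 6 of 31 cells of mice 1 and 2 and thus give no background for Cyp26b1.

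Cd44-high and Cd44-negative preadipocytes differed less. Of the 9 genes, 6 had enough counts to be tested, and 2 of them changed, both higher in Cd44-high cells, beside 18.1% of the 11280 genes tested (12.2% higher and 5.86% lower). The balance depended on the scaling, since 67.6% of the changed genes were higher with TMM and 42.1% with library size alone. Rdh10 was at 11.5, 13.5 and 13.7 CPM in Cd44-high and 8.93, 6.88 and 9.45 CPM in Cd44-negative cells. The groups did not overlap, and the log2 fold change was 0.74 (standard error 0.180, edgeR, adjusted p = 0.0144). Rbp4 was at 87.2, 44.1 and 31.1 CPM in Cd44-high and 60.4, 38.4 and 31.3 CPM in Cd44-negative cells, which overlapped and were equal within 1 CPM in mouse 3. Its log2 fold change was 0.39 (standard error 0.101, edgeR, adjusted p = 0.0208). Cd44-high cells were deeper, with medians of 8861.5, 13729 and 7578.5 UMIs against 7863, 12606.5 and 7118. When cells were thinned to 3000 UMIs before they were gated, Rbp4 gave 0.50 and did not pass (edgeR, adjusted p = 0.705), and Rdh10 had too few counts to be tested. Rbp4 was not past the threshold without mouse 1 (adjusted p = 0.188) or with library size (0.29, adjusted p = 0.0682), nor Rdh10 without mouse 2 (adjusted p = 0.183). Both calls were also lost with DESeq2 (adjusted p = 0.244 for Rbp4), with stricter gates (adjusted p = 0.0727 for Rbp4 and 0.0890 for Rdh10) and without the mouse block (0.756 and 0.245).

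The other 4 genes did not pass between Cd44-high and Cd44-negative cells. Cyp26b1 was at 122, 152 and 78.8 CPM against 217, 134 and 110 CPM, lower in 2 of 3 mice, with a log2 fold change of -0.25 (standard error 0.149, edgeR, adjusted p = 0.270). Without mouse 2 it was -0.62 and passed (adjusted p = 0.000571). Aldh1a1, Aldh1a3 and Rarb gave 0.04, 0.65 and 0.52 (edgeR, adjusted p = 0.790, 0.114 and 0.215). Endothelial markers summed to 1.48, 2.82 and 0 CPM in Cd44-high and 44.6, 92.3 and 6.21 CPM in Cd44-negative cells. With cells that had a UMI of Pecam1, Cdh5, Ptprc, Rgs5, Adipoq or Plin1 left out, Rdh10 gave 0.69 and Rbp4 0.31 (edgeR, adjusted p = 0.0320 and 0.0422).

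To see how the levels vary inside the gates, all kept cells were also put into sets without shared cells, of which 7 had at least 50 cells in every mouse. Levels in these sets are a description, with no test. Progenitors with at least 3 UMIs of Krtdap and Dmkn together (1187, 693 and 1185 cells) were set beside the other progenitors, cells of the regulatory gate beside a Cilp/Myoc set (at least 3 UMIs of Cilp and Myoc together and at most 1 each of Dpp4 and Fabp4), and preadipocytes with at least 2 UMIs of the chemokine gene Cxcl9 beside other preadipocytes. The remaining cells, which fell in no other set, were the last.

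**Figure D4:**
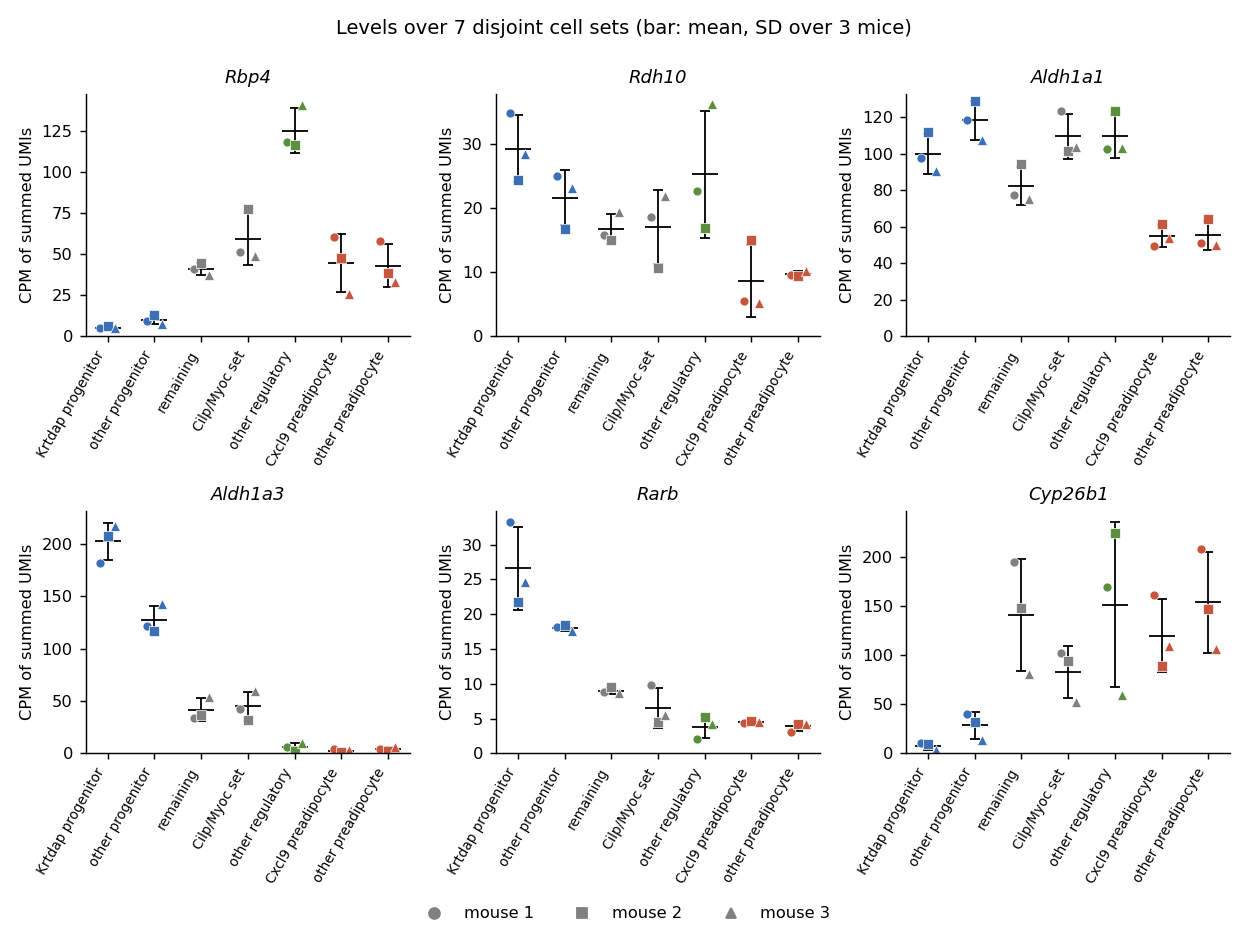
Level of 6 genes in CPM of summed UMIs (vertical axis) in the 7 sets of cells (horizontal axis). Each point is 1 mouse, by marker shape. Krtdap progenitors are at the top for Aldh1a3 and Rarb and at the bottom for Cyp26b1 and Rbp4.

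Krtdap progenitors stood at one end of the order, without overlap with the next set, for Aldh1a3, Rarb, Cyp26b1 and Rbp4. How many of all genes do so was not counted, so this is not read as particular to these genes. Aldh1a3 was at 202 ± 18.1 CPM (SD, n = 3 mice) there and at 127 ± 13.4 CPM in other progenitors, a ratio of 1.49, 1.77 and 1.52 in mice 1, 2 and 3, and the sets did not overlap. The next sets were the Cilp/Myoc set at 44.9 CPM and the remaining cells at 41.8 CPM, which overlapped with each other, and the preadipocyte and regulatory sets came last without a gap between neighbours. Rarb was at 26.6 ± 5.98 CPM in Krtdap progenitors and 18.1 ± 0.478 CPM in other progenitors, again without overlap, with ratios of 1.83, 1.18 and 1.41. Cyp26b1 ran the other way. It was at 7.69 ± 3.87 CPM in Krtdap progenitors and 28.5 ± 13.9 CPM in other progenitors, a ratio of 0.263, 0.286 and 0.249. The other 5 sets lay between 83.0 and 154 CPM with each overlapping the next. Rbp4 was lowest in Krtdap progenitors, at 5.23 ± 0.630 CPM, next lowest in other progenitors, at 9.81 ± 2.57 CPM, and highest in regulatory cells. Its level in progenitors was not told from background, as given above.

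Aldh1a1 split the sets in another place, and Rdh10 did so less fully. For Aldh1a1, 5 sets from other progenitors (118 ± 10.6 CPM) to the remaining cells (82.4 ± 10.7 CPM) overlapped from one to the next, and both preadipocyte sets lay below them, at 55.2 ± 8.05 and 54.8 ± 6.18 CPM. For Rdh10, 5 sets from Krtdap progenitors (29.2 ± 5.22 CPM) to the remaining cells (16.7 ± 2.38 CPM) overlapped likewise, above other preadipocytes at 9.65 ± 0.464 CPM. Preadipocytes with Cxcl9 had 8.57 ± 5.58 CPM of Rdh10 and overlapped with other preadipocytes. Their range, 5.23 to 15.0 CPM, also overlapped with the remaining cells (from 14.98 CPM) and the Cilp/Myoc set (from 10.7 CPM).

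The genes most like each of these 6 were looked for among 6485 genes, by Pearson's r of log2(CPM + 1) over 21 sums (7 sets of 3 mice). The sums of 1 mouse share a library, so r is only a description. For Aldh1a3 they were Zyx (0.989), Bmp7 (0.988) and Anxa3 (0.987), the last of which is also 1 of the 6 progenitor markers. For Rarb they were Cd47 (0.959), Eef1b2 (0.953) and Igsf1 (0.952), and for Cyp26b1 they were Ggt5 (0.958), Ntf3 (0.945) and Auts2 (0.945). Rbp4 was most like F3 (0.957), a regulatory marker, and Gas6 (0.952). Aldh1a1 was most like Pramef8 (0.932), Ntn1 (0.932) and Thbs3 (0.923), and Rdh10 like Klf13 (0.910), Cd200 (0.899) and Podxl2 (0.887).

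Aldh1a3, a synthesis gene, and Cyp26b1, a breakdown gene, were also set against each other inside the progenitor gate. Cells with a UMI of Aldh1a3 had 17.6, 14.4 and 8.67 CPM of Cyp26b1, and cells without one had 55.4, 53.8 and 16.3 CPM. Cyp26b1 was thus lower beside Aldh1a3 in each mouse, by a ratio of 0.268 to 0.533. Krtdap progenitors, with more Aldh1a3 and less Cyp26b1, also met this gate, and their part in the split was not tested. The same association read from the other side gave 75.5, 79.4 and 109 CPM of Aldh1a3 in progenitors with a UMI of Cyp26b1. Progenitors without one had 139, 145 and 155 CPM. In the other gates, where Aldh1a3 was low, these ratios were 0.539 to 1.16 in preadipocytes and 0.701 to 1.56 in regulatory cells. Cyp26b1 split by Aldh1a3 gave 0.812 to 1.03 in preadipocytes of mice 1 and 3. Rbp4, whose level in progenitors was not told from background, was at 12.6, 19.6 and 10.2 CPM in progenitors with a UMI of Cyp26b1. It was at 7.99, 10.4 and 7.09 CPM in progenitors without one. In the other gates Rbp4 went the other way in each mouse, lower in cells with a UMI of Cyp26b1. The ratios were 0.514 to 0.916 in preadipocytes and 0.388 to 0.715 in regulatory cells. Progenitors with a UMI of Cyp26b1 were deeper, with medians of 7841.5, 13286 and 7280.5 UMIs against 7283, 11930 and 6666. The other synthesis gene, Aldh1a1, split Cyp26b1 less, with ratios of 0.775 to 0.920 in progenitors and 0.920 to 1.18 in preadipocytes. In the regulatory gate the ratios went the other way, at 1.16 to 1.63. Cells with an Aldh1a1 UMI were deeper too. Rbp4 in progenitors was also lower beside Aldh1a3, with ratios of 0.437 to 0.601. Aldh1a1 and Rarb were split little by Aldh1a3, with ratios of 1.05 to 1.08 and 0.982 to 1.06. Cells with an Aldh1a3 UMI were slightly deeper (medians of 7522, 12253.5 and 6937 UMIs against 7079, 11488 and 6345.5), and the part of depth in these ratios was not tested.

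A list of 53 other genes of the pathway was read from the same fits, and 33 of them could be tested between the gates. In preadipocytes over progenitors, 16 were higher, 8 lower and 9 did not pass, with a median log2 fold change of 0.28. In regulatory cells over progenitors, 12 were higher, 10 lower and 11 did not pass, with a median of -0.07, and in regulatory cells over preadipocytes 7 were higher, 8 lower and 18 did not pass, with a median of -0.04. These shares stand beside the 56.4%, 42.9% and 25.7% of all genes tested. Of the storage and transport genes, 3 of the 4 tested were higher in preadipocytes than in progenitors. Of the 13 tested genes that oxidise or reduce retinol and retinal, 5 were higher and 4 lower, and of the 8 receptors and corepressors, 4 were higher and 2 lower. The other retinoic acid breakdown enzymes could not be tested, since Cyp26a1 had 7 UMIs and Cyp26c1 had 0 UMIs in all kept cells.

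**Figure D5:**
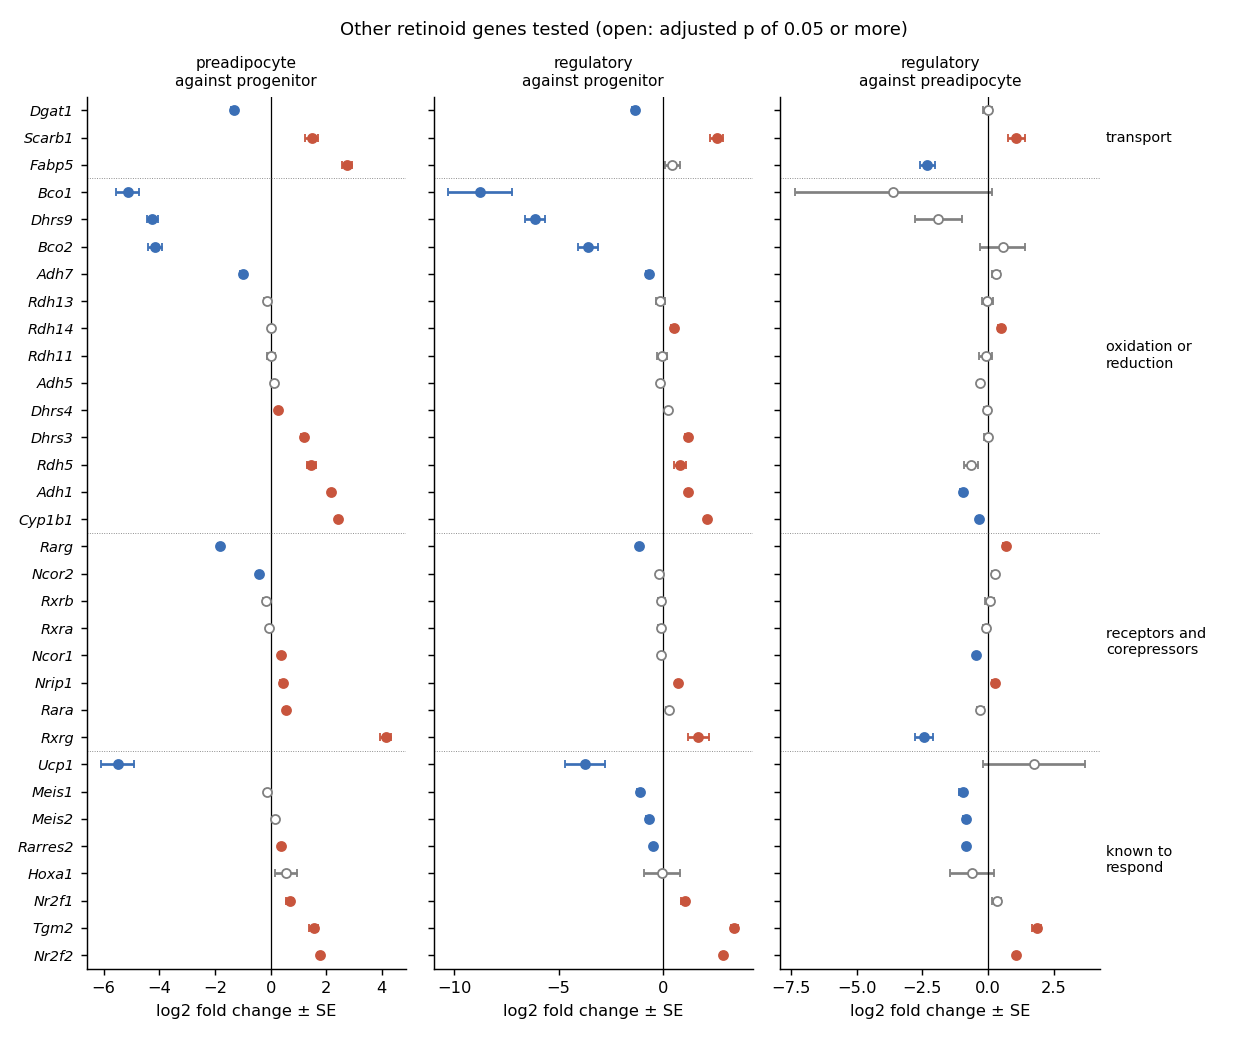
Log2 fold change of other retinoid genes tested (rows) in the 3 comparisons of gates (columns), from edgeR on sums of 3 mice. Red points are higher and blue points lower at an adjusted p under 0.05, and open grey points did not pass. In preadipocytes over progenitors, more of the genes are higher than lower, and Dhrs9 is at -4.26.

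Of the storage and transport genes, Fabp5, which carries fatty acids and can bind retinoic acid, was at 38.0 ± 14.2 CPM (SD, n = 3 mice) in preadipocytes, above progenitors by 2.75 and above regulatory cells, for which the change was -2.31 (edgeR, adjusted p = 8.53e-05). Dgat1, which can esterify retinol, was lower in regulatory cells than in progenitors by a log2 fold change of -1.35. It was lower in preadipocytes than in progenitors too, by -1.33. Regulatory cells against preadipocytes gave -0.01 (edgeR, adjusted p = 0.976). Fabp5 was thus highest in the preadipocyte gate.

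Among the oxidising enzymes, Adh1, an alcohol dehydrogenase that accepts retinol, was at 18.3 ± 3.49 CPM in progenitors and 84.0 ± 9.58 CPM in preadipocytes (log2 fold change 2.16, standard error 0.0640, edgeR, adjusted p = 8.56e-11), and was lower in regulatory cells than in preadipocytes by -0.97. Cyp1b1, which can oxidise retinol and retinal, was at 20.4 ± 4.44 CPM in progenitors, 115 ± 23.6 CPM in preadipocytes and 88.2 ± 14.4 CPM in regulatory cells, higher than progenitors in both (edgeR, adjusted p = 5.93e-11 and 2.02e-09). Dhrs9, a retinol dehydrogenase, was at 23.6 ± 9.42 CPM in progenitors and 1.28 ± 0.954 CPM in preadipocytes (log2 fold change -4.26, standard error 0.198, edgeR, adjusted p = 3.05e-09). In regulatory cells it was at 0.262 ± 0.258 CPM, close to the limit of detection. The log2 fold change of -6.15 over progenitors rests on that level. So the retinol-oxidising genes did not go one way, with Dhrs9 and Rdh10 lower and Adh1 and Cyp1b1 higher in preadipocytes than in progenitors.

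Rarg, a further retinoic acid receptor, was at 84.1 ± 8.35 CPM in progenitors and 24.8 ± 3.98 CPM in preadipocytes (log2 fold change -1.82, standard error 0.0717, edgeR, adjusted p = 7.30e-10), the same direction as Rarb. Of the 8 receptors and corepressors of the list, Rarg among them, 4 were higher and 2 lower in that comparison, so this group did not go one way. Of genes known to respond to retinoic acid, Nr2f2 was higher in preadipocytes by 1.76 and in regulatory cells by 2.84 over progenitors, and Tgm2 was at 4.74 ± 1.68 CPM in progenitors and 48.3 ± 1.59 CPM in regulatory cells (log2 fold change 3.41, standard error 0.183, edgeR, adjusted p = 2.95e-08). In regulatory cells over preadipocytes, Nr2f2 was higher by 1.08, Tgm2 by 1.85, and Meis2 was at -0.84. Over the whole group of such genes, 4 of 8 tested were higher and 1 lower in preadipocytes over progenitors, and 3 were higher and 4 lower in regulatory cells over progenitors, beside 56.4% and 42.9% of all genes tested that changed in either direction.

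Between Cd44-high and Cd44-negative preadipocytes, 28 genes of the list were tested, of which 1 was higher and 6 lower, with a median of -0.10 beside 0.01 over all genes tested, of which 12.2% were higher and 5.86% lower, a balance that turned with the scaling as given above. Tgm2 was the higher one (0.80, edgeR, adjusted p = 0.0139). Among those lower were Meis1 (-0.54), Adh1 (-0.46), Nr2f2 (-0.39) and Dhrs3 (-0.38), the last a retinal reductase (edgeR, adjusted p = 0.00496).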

How the data were processed

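Libraries were made with 10x 3′ v2 chemistry. The authors aligned the reads and counted UMIs with Cell Ranger, and they deposited raw UMI counts per gene and barcode. The file headers name version 4.0.0 and the submitters' notes 2.1.1 and mm10. Whether strand was used is not given in the sources used here. Barcodes entered with over 500 genes and under 5% mitochondrial UMIs. Doublets were not removed. UMIs were summed per mouse and gate and tested in edgeR 4.0.16 (R 4.3.3, filterByExpr, TMM, quasi-likelihood, mouse as block), with the 3 gates in one fit and the Cd44 groups in another, and gate genes were not counted. The sums of a mouse come from 1 animal. After gate means were taken off, those of the same mouse correlated at 0.154 to 0.678 across 13264 genes, and those of different mice at -0.532 to 0.138. Deviations of 3 mice from their gate mean cancel out, so the values of different mice are tied to those of the same mouse. They are thus no separate observation. The procedure was tested on simulated data for preadipocytes against progenitors. In these, 195 of 12874 genes changed, and it found 189 of them with 12 false calls. A far larger share of genes changed between the real gates, and that setting was not simulated. Gates were cut on the same cells, so genes tied to gate genes must differ. The genes, gates and lists were chosen with earlier results of these data known. All 9 genes are named. Of the pathway list, the 6 largest changes past the threshold with at least 20 CPM in either group are named per comparison. Like genes are the 3 with the highest r. Results of 2 genes that these rules would name are left out. Alternatives changed the normalization, test (DESeq2 1.42.0), filter, block, depth, mitochondrial limit, gates, markers and mice.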

Additional observations from a re-analysis of the deposited data

How the results depend on the processing

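Over the 4 comparisons, 242 of the alternative values of called log2 fold changes of the 9 genes stayed past the threshold in the same direction and 17 lost it, and 10 of the others passed. Without the mouse block (no replicate block), 3996, 3130 and 1531 genes changed in preadipocytes over progenitors, regulatory cells over progenitors and regulatory cells over preadipocytes, and 1 in Cd44-high cells, where none of the 9 then passed. Crabp1 lost both its calls without the block (adjusted p = 0.139 and 0.0982), and no other call of the 9 between gates was lost. With cells thinned to 3000 UMIs before gating, 3300 and 1916 genes changed in the regulatory comparisons and 162 in Cd44-high cells. DESeq2 called 750 genes for Cd44-high cells. With each mouse left out in turn the counts were 6117 to 6625, 4173 to 4792, 2053 (without mouse 2) to 2800, and 1059 (without mouse 2; 1217 without mouse 3) to 2231 for Cd44-high. Library size in place of TMM left 42.1% of the Cd44 calls higher, against 67.6%. Of the 9 genes, 1 passed for Cd44-high with library size, 0 with DESeq2, thinned cells or stricter gates, and 1 to 2 with a mouse left out.

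Signs turned for values that had not passed. Regulatory over progenitor Rdh10 ran from -0.14 to 0.31 with a mouse left out. Regulatory over preadipocyte values ran from -0.14 to 0.67 for Aldh1a3 (-0.035 with mesothelial, epithelial and muscle markers left out), -0.24 to 0.80 for Crabp2 and -0.42 to 0.36 for Cyp26b1 (-0.010 with DESeq2 and -0.014 with cells of 2 gates kept). In Cd44-high cells, Aldh1a1 ran from -0.057 to 0.078 (-0.061 with library size and -0.025 with stricter gates) and Cyp26b1 from -0.62 to 0.011 (0.29 in thinned cells). The causes were not tested. Aldh1a2 in regulatory cells over preadipocytes lost its call with stricter gates (adjusted p = 0.0697). Depth limits Crabp1, Crabp2 and Aldh1a2, which rest on few UMIs.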

Other observations

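Preadipocytes with a UMI each of Cited1 and Car3 were few, 105, 8 and 20 cells in mice 1, 2 and 3, and are given as values only. They had 208, 90.4 and 227 CPM of Rbp4, against 57.9, 38.5 and 32.7 CPM in the other preadipocytes, without overlap. In mice 1 and 3 these cells were also above the regulatory set, which had 117 to 141 CPM, and in mouse 2 they were below it. Their Cyp26b1 was at 29.2, 67.8 and 0 CPM, below all of the other preadipocytes.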
